A study of Mus musculus with 4 samples.

Results

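The mast cell protease and receptor genes comprised 6 genes, Tpsb2, Cpa3, Mcpt4, Cma1, Kit and Ms4a2, of 13677 genes measured in mouse inguinal white fat (ingWAT), which lies under the skin of the groin. They were taken by symbol, and all 6 had a value in every library. They had been proposed for their levels in the comparison made here, so their differences between the groups are described and not tested. The study holds 2 wildtype libraries (WT) and 2 libraries of animals labelled FLCN adipKO (FLCNKO), in which the folliculin gene Flcn is targeted in adipose tissue. No treatment is named for either group. The sources used here do not give the animals' age, sex or strain, the driver of the knockout, the deleted part of Flcn or any pooling of animals. Because no label links a library to 1 animal, every p-value below reflects the spread among libraries, which may be technical.

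Mast cells are tissue-resident immune cells that store proteases, heparin and histamine in granules and release them when the IgE receptor on their surface is cross-linked. They depend on stem cell factor, the ligand of the receptor tyrosine kinase KIT, for survival. Connective tissue mast cells, the kind found around vessels in fat and skin, carry tryptase, chymase and carboxypeptidase together. Tpsb2 encodes a tryptase, Cpa3 the granule carboxypeptidase, and Mcpt4 and Cma1 chymase-family serine proteases, while Ms4a2 encodes the signal-amplifying beta chain of the IgE receptor.

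The upstream sequences of 3 protease genes are shown because these genes were low in the same libraries, and their promoters are where factors of the mast cell lineage are known to act. Sequences come from RefSeq (build GRCm38.p6, matched by symbol for Cpa3, Mcpt4, Cma1, Kit and Ms4a2), all 3 on the minus strand of the genome and written 5′ to 3′ along the gene. Each line holds 220 bases and ends 30 bases before the annotated start, and capitals mark a match to the GATA factor motif, spelled AGATAA or TGATAA, or either of these with G as the last letter, on both strands.
Cpa3 chr3:20242212-20242431: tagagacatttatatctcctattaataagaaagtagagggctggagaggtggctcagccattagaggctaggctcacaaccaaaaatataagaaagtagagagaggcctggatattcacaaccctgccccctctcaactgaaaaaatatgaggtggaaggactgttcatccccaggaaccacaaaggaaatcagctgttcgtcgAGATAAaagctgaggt
Mcpt4 chr14:56062341-56062560: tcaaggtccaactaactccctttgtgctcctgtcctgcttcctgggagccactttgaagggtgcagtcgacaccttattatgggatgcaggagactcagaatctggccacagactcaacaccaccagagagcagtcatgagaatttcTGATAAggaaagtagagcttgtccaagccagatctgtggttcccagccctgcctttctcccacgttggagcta
Cma1 chr14:55944706-55944925: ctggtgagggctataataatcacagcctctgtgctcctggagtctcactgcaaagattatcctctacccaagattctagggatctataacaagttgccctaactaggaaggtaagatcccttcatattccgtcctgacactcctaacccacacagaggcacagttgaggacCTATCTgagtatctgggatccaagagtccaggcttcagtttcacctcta
In the 250 bases before the start, the GATA motif occurred 46 bases before the start of Cpa3 (AGATAA), 103 before that of Mcpt4 (TGATAA) and 79 before that of Cma1 (CTATCT, which is AGATAG on the other strand). Ms4a2 held 3 matches and Kit held 0. Of 32851 RefSeq windows of this length, 26.5% held a match. The letters CATGTG, bound by MITF, and CACGTG, bound by MITF and its relative TFE3, were searched on both strands and occurred in none of these 5 windows, against 12.3% and 6.02% of all windows. TATAAA on the gene strand began 31 bases before the start of Cpa3 and 32 before that of Mcpt4, and occurred in 7.59% of windows. No match overlapped a match to another motif, and a match is a run of letters, not an observed binding site.

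The 4 protease genes were all lower in both FLCNKO libraries than in either WT library, by 1.77 to 2.09 times on the linear scale, whereas the groups overlapped for Kit and Ms4a2. Groups that did not overlap, with FLCNKO lower, were thus found for 4 of 6 members, beside 25.4% of all genes (54.6% of all genes did not overlap in 1 direction or the other). Nothing is read from this count, since the members were chosen on this contrast. The values are the deposited log2 expression values, and a difference is the FLCNKO mean minus the WT mean.

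Tpsb2 (ENSMUSG00000033825), the tryptase gene, stood at 11.91 (log2) in WT replicate 1 and 11.66 in WT replicate 2, against 10.91 and 10.53 in FLCNKO replicates 1 and 2. Both FLCNKO libraries lay below both WT libraries, and the group means were 11.78 ± 0.18 and 10.72 ± 0.27 (SD, n = 2). The log2 difference was -1.06, a level 2.09 times lower.

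Cpa3 (ENSMUSG00000001865), whose product trims amino acids from the C-terminal end of peptides, had log2 values of 11.42 and 11.63 in WT against 11.02 and 10.38 in FLCNKO. The groups did not overlap, and FLCNKO replicate 2 was the lowest library. Means were 11.53 ± 0.15 and 10.70 ± 0.45 (SD, n = 2), a log2 difference of -0.83 or 1.77 times lower.

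Mcpt4 (ENSMUSG00000061068) encodes the chymase that resembles the human enzyme in its cleavage specificity. Its log2 values were 11.82 and 11.90 in WT, and 11.36 and 10.63 in FLCNKO. The WT libraries nearly coincided and the FLCNKO libraries were spread, with means of 11.86 ± 0.06 and 10.997 ± 0.514 (SD, n = 2). The log2 difference was -0.86, or 1.82 times lower.

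Cma1 (ENSMUSG00000022225), a chymase-family gene whose mouse product cleaves like an elastase, had log2 values of 11.57 and 11.35 in WT against 10.90 and 10.09 in FLCNKO. Again both FLCNKO libraries were below WT, and replicate 2 was the lowest. Means were 11.46 ± 0.15 and 10.49 ± 0.58 (SD, n = 2), a log2 difference of -0.97 or 1.95 times lower.

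The receptor genes did not share this pattern. Kit (ENSMUSG00000005672) had log2 values of 10.13 and 9.997 in WT against 10.50 and 9.97 in FLCNKO, so that FLCNKO held both the highest and the lowest library. Its means were 10.06 ± 0.10 and 10.24 ± 0.38 (SD, n = 2), with a log2 difference of 0.17. Ms4a2 (ENSMUSG00000024680) had log2 values of 6.82 and 6.49 in WT against 6.24 and 6.51 in FLCNKO, and the groups overlapped by a narrow margin. Its means were 6.66 ± 0.23 and 6.38 ± 0.19 (SD, n = 2), with a log2 difference of -0.28.

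Ms4a2 lay near the bottom of the measured range. Its value was the 39th and 26th lowest distinct value in WT replicates 1 and 2 and the 17th lowest in both FLCNKO libraries. Exactly this value was held by 36 to 75 genes of the same library, Ms4a2 included. At this level values move in coarse steps, so a difference of the size seen in the protease genes is less well resolved. Each value of Kit and the proteases was held by 3 to 18 genes, counting the gene itself.

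**Figure D1:**
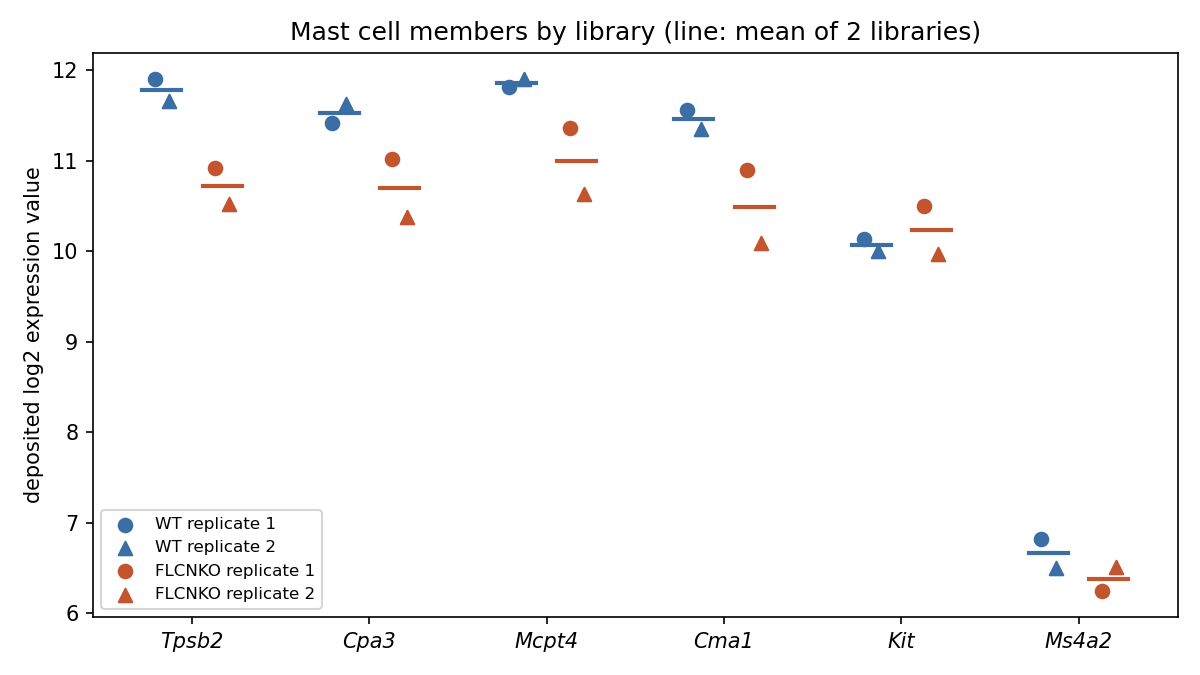
Deposited log2 expression values (vertical axis) of the 6 members in each library, with circles for replicate 1, triangles for replicate 2 and a line for the mean of the 2 libraries. Both FLCNKO points of Tpsb2, Cpa3, Mcpt4 and Cma1 lie below both WT points, while those of Kit and Ms4a2 overlap WT.

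The 4 protease differences depended in size on which FLCNKO library was used. Without FLCNKO replicate 2, the lowest library for each of them, log2 differences were -0.87 for Tpsb2, -0.51 for Cpa3, -0.50 for Mcpt4 and -0.56 for Cma1. Without FLCNKO replicate 1 they were -1.26, -1.15, -1.22 and -1.37. Kit turned from 0.17 to -0.10 without FLCNKO replicate 1 and was 0.44 without replicate 2. Ms4a2 was -0.15 without FLCNKO replicate 1 and -0.42 without replicate 2, and -0.12 without WT replicate 1 and -0.44 without WT replicate 2.

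Levels of different genes were compared per length, as the log2 value minus log2 of the longest coding transcript in kb (GENCODE M21). In WT the order was Mcpt4 (11.71 ± 0.06, SD, n = 2), Tpsb2 (11.42 ± 0.18), Cma1 (11.33 ± 0.15), Cpa3 (10.99 ± 0.15), Kit (7.68 ± 0.10) and Ms4a2 (5.40 ± 0.23). Tpsb2 and Cma1 overlapped between libraries and the other neighbours did not. In FLCNKO the proteases ranged from 10.85 ± 0.51 for Mcpt4 to 10.16 ± 0.45 for Cpa3 (SD, n = 2), and neighbours in that order overlapped. Kit at 7.85 ± 0.38 and Ms4a2 at 5.12 ± 0.19 (SD, n = 2) kept the last places. The granule enzymes were thus far more abundant per length than the receptor genes in both groups.

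The make-up of the protease pool was similar in the 4 libraries. Of the summed linear level per length of the 4 proteases, Mcpt4 made up 29.8% and 32.7% in WT and 33.6% and 31.9% in FLCNKO. Tpsb2 made up 27.3% and 23.8% against 21.2% and 25.5%, and these groups overlapped. Cma1 made up 25.5% and 22.7% against 24.9% and 22.2%. Cpa3, the smallest part, made up 17.4% and 20.8% against 20.3% and 20.5%. These shares treat the deposited values as plain log2 abundances, which normalization may have bent. The gaps among the proteases varied less over the libraries than the gaps between each protease and Kit. The log2 difference between Mcpt4 and Cpa3 varied by 0.14 over the 4 libraries, and that between Tpsb2 and Cpa3, the most variable pair of proteases, by 0.59. By contrast Tpsb2 exceeded Kit by 1.77 and 1.66 in WT and by 0.41 and 0.56 in FLCNKO, and Cma1 exceeded Kit by 1.43 and 1.355 against 0.40 and 0.12 (log2 values without length correction).

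**Figure D2:**
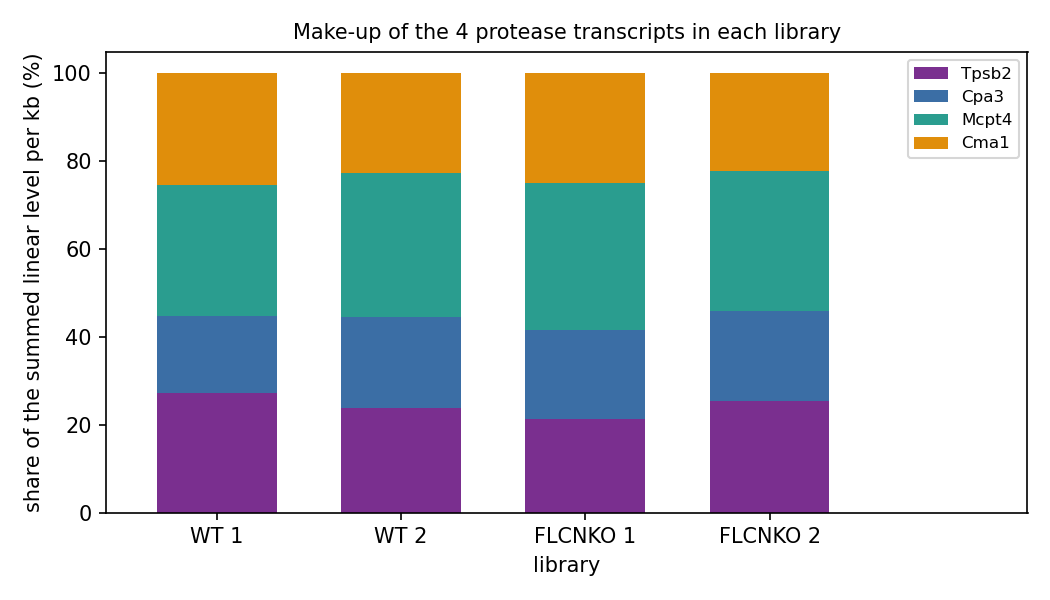
Share of each protease transcript (percent, stacked bars) in the summed linear level per kb of Tpsb2, Cpa3, Mcpt4 and Cma1, for each of the 4 libraries. Mcpt4 takes 29.8% to 33.6% and the bars look alike in WT and FLCNKO.

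Sequence shared with related genes touches the chymase family most. Of the 31-base stretches of Mcpt4 transcripts, 12.2% occurred in transcripts of other genes, foremost Cma2 and Mcpt9, and 10.6% of those of Cma1 did, in Gm48934. The share was 0.557% for Tpsb2, with the neighbouring tryptase gene Tpsab1, and 3.96% for Ms4a2, while Cpa3 and Kit shared 0. The sources used here do not say how reads matching several genes were counted, so Mcpt4 and Cma1 are less certain than Cpa3 and Tpsb2. In RefSeq, Cma1, Mcpt4 and the cytotoxic granule gene Gzmb belong to a run of 15 coding genes on chromosome 14, of which these 3 were analysed here. Gzmb had log2 values of 7.18 and 6.27 in WT against 7.81 and 5.21 in FLCNKO, with groups that overlapped. Tpsg1, the tryptase gene next to Tpsb2, was low and overlapped too, with 5.82 and 6.63 in WT and 6.16 and 5.42 in FLCNKO. Both are named after their values were seen.

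Other genes linked to mast cells were followed, 61 measured of 71 listed, none of them a member. Of these 61 genes, 1 was higher and 0 lower with limma's test at a p under 0.05 adjusted over all genes, beside 0.98% and 0.614% of all genes (1.59% in either direction). At an unadjusted p under 0.05, 18 were lower and 4 higher, beside 10.3% and 12.1% of all genes. This count of 22 was 10 after centring on the adipocyte markers, 17 without a trend in the variances and 25 with robust estimation. Over all genes, 3061 became 1472, 2702 and 3090 in the same settings. The groups did not overlap for 35 genes with FLCNKO lower and for 8 with FLCNKO higher, beside 25.4% and 29.2%. All these shares over all genes also stand beside the counts given for each list below. The median log2 difference of the 61 genes was -0.36, against 0.0046 over all genes. With 1 library left out, this median of the 61 genes ran from -0.47 without FLCNKO replicate 1 to -0.27 without FLCNKO replicate 2. The same list holds genes that macrophages and other leukocytes also express, and signalling genes that are not particular to mast cells. Its counts and median therefore do not describe mast cells alone. Because the tissue was sequenced in bulk, fewer mast cells and less RNA per mast cell cannot be told apart here or for the members.

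Among 6 measured granule genes 0 passed limma's adjusted test (1 lower at an unadjusted p under 0.05), and the median log2 difference was -0.46. Hdc, which makes histamine, had log2 values of 8.53 and 8.21 in WT against 8.06 and 7.13 in FLCNKO, without overlap (difference -0.77 ± 0.39, SE; limma adjusted p = 0.315). Slc18a2, which loads amines into granules, had 7.86 and 7.51 against 7.38 and 7.01 (-0.49 ± 0.33, adjusted p = 0.45). Srgn, the core protein to which granule heparin is attached, had 12.25 and 12.01 against 11.86 and 11.32 (-0.54 ± 0.21, adjusted p = 0.225). Ndst2, which sulfates that heparin, had 11.46 and 11.48 against 11.06 and 11.09 (-0.39 ± 0.11, adjusted p = 0.129). Each of these 4 was lower in both FLCNKO libraries without overlap, as 25.4% of all genes were, and none passed the test.

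Of 14 genes of the IgE receptor and its signalling, 0 passed limma's adjusted test, and the median log2 difference was -0.65. At an unadjusted p under 0.05 (limma), 7 were lower and 0 higher, beside 10.3% and 12.1% of all genes. The 4 with the smallest p were Inpp5d, a lipid phosphatase that restrains the receptor (-0.80 ± 0.19, SE; limma adjusted p = 0.0958), Plcg2 (-0.83 ± 0.23, adjusted p = 0.122), and the kinase genes Fyn (-0.86 ± 0.24, adjusted p = 0.127) and Syk (-0.72 ± 0.21, adjusted p = 0.136). The receptor chains other than Ms4a2 are named after their values were seen. Fcer1a, the IgE-binding chain, had log2 values of 7.20 and 7.54 in WT against 7.10 and 6.04 in FLCNKO. Fcer1g, the gamma chain that macrophage Fc receptors share, had 11.87 and 11.59 against 11.35 and 10.70. Both were lower in FLCNKO without overlap, and neither passed (limma adjusted p = 0.407 and 0.188).

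The KIT ligand differed little between libraries. Kitl, which encodes stem cell factor and is named after its values were seen, had log2 values of 12.59 and 12.59 in WT against 12.56 and 12.59 in FLCNKO (-0.02 ± 0.10, SE; limma adjusted p = 0.934). Of 10 genes of KIT ligand and signalling 0 passed (limma; 2 lower and 1 higher at an unadjusted p under 0.05), with a median log2 difference of -0.10. Members with the smallest p were Pik3r1 (-0.52), Stat5a (0.32), Sh2b3 (-0.46) and Pik3cd (-0.59), with limma adjusted p-values of 0.164, 0.217, 0.221 and 0.226.

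Ptger3, a receptor for prostaglandin E that mast cells and adipocytes both use, was the 1 gene of the 61 that passed. Its log2 values were 12.19 and 12.61 in WT and 13.95 and 13.83 in FLCNKO, so that it rose by 1.49 ± 0.17 (SE, n = 2 per group; limma adjusted p = 0.0411), against the direction of the proteases. It was not called without the mean-variance trend or without any 1 of the 4 libraries, settings in which limma called 0 genes in all. Of 15 measured other receptors, it was the 1 called (4 lower and 2 higher at an unadjusted p under 0.05), and the median log2 difference was -0.42. Cd63, a granule membrane protein gene that many cells express, differed by 0.85 ± 0.15 (SE), Il3ra by -0.86 ± 0.20 and Il1rl1, the receptor for the alarmin IL-33, by -0.58 ± 0.15, with limma adjusted p-values of 0.0647, 0.0928 and 0.118. Mrgprb2, a receptor of connective tissue mast cells for basic secretagogues, is named after its values were seen. It had 7.75 and 8.15 in WT and 7.95 and 6.91 in FLCNKO, which overlapped.

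Transcription factor genes of the lineage gave 0 calls of 8 measured (limma; 2 lower and 0 higher at an unadjusted p under 0.05) and a median log2 difference of -0.08. Lmo4 (-0.81), Spi1 (-0.40), Meis2 (0.33) and Tal1 (0.36) had the smallest p, with limma adjusted p-values of 0.0722, 0.2, 0.326 and 0.518. Gata2 and Mitf, which direct mast cell identity, are named after their values were seen. Gata2 had log2 values of 9.30 and 9.23 in WT against 8.83 and 9.55 in FLCNKO, and Mitf 10.57 and 10.63 against 10.58 and 10.63. The groups overlapped for both. Neither is particular to mast cells, since Gata2 is also listed here as a basophil marker and Mitf as a melanocyte marker.

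Among 8 genes of eicosanoid synthesis 0 passed (limma; 2 lower and 1 higher at an unadjusted p under 0.05), with a median log2 difference of -0.36. The leukotriene pathway genes Alox5ap (-0.77 ± 0.13, SE) and Alox5 (-0.82 ± 0.14) had limma adjusted p-values of 0.0591 and 0.0604. Pla2g4a, the phospholipase that frees arachidonic acid, lay in the opposite direction (1.03 ± 0.22, adjusted p = 0.0825), and Ptgs2, an inducible prostaglandin synthase, had -0.87 ± 0.35 (adjusted p = 0.232).

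**Figure D3:**
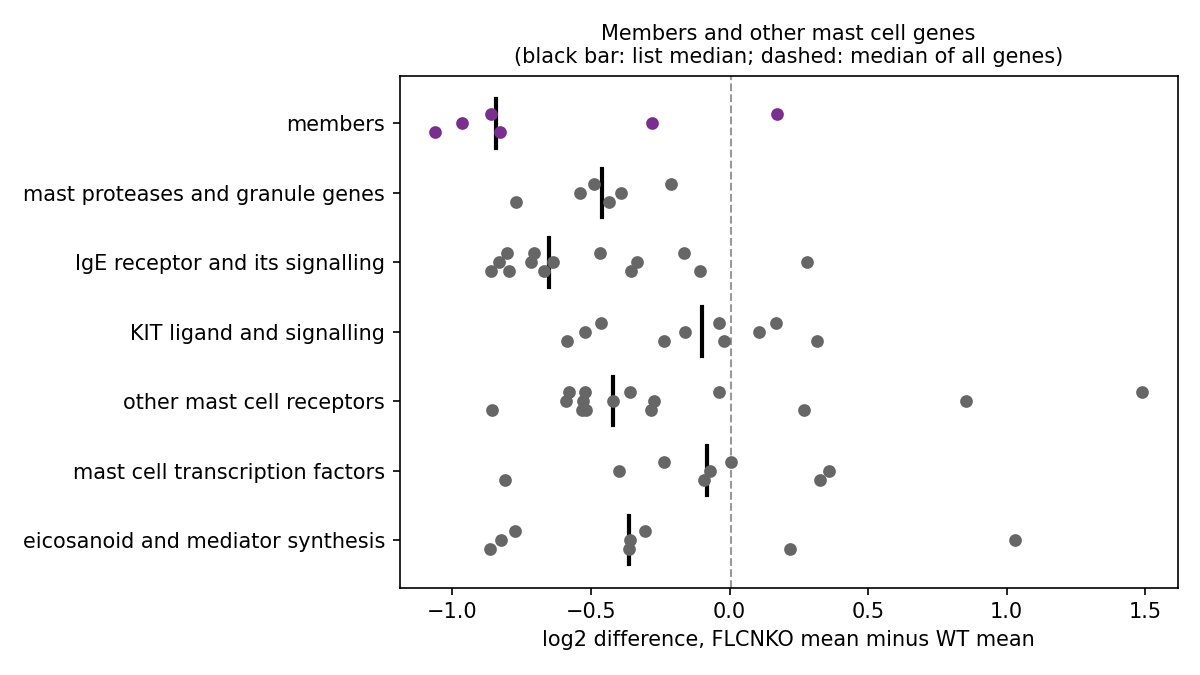
Log2 difference (FLCNKO mean minus WT mean, horizontal axis) of the 6 members and of the other measured mast cell genes by list, with a black bar for each list's median and a dashed line for the median of all genes. The medians run from -0.84 for the members to -0.08 for the transcription factors, and Ptger3 at 1.49 is the highest point.

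Markers of other cell types were read beside the members. Adipocyte markers had high values, of which Adipoq lay between 17.72 and 18.31 in the 4 libraries. The groups did not overlap for 3 of the 11, with FLCNKO lower, beside 25.4% of all genes. These were Adipoq (-0.46), Retn (-0.44) and Cfd (-1.13). The summed linear level of the 11 adipocyte markers, as log2, was 21.78 and 21.74 in WT and 21.51 and 21.48 in FLCNKO, a difference of -0.27. That of the 4 proteases was 13.69 and 13.65 against 13.06 and 12.42, and its log2 difference was -0.93. Centring each library on the median of the adipocyte markers left the protease differences between -1.04 for Tpsb2 and -0.80 for Cpa3, and Kit at 0.20. These medians lay 0.05 and -0.03 from their mean in WT and -0.28 and 0.26 in FLCNKO, nearly cancelling within each group. This centring could therefore move a group difference only slightly, and it did not correct for the lower summed level. Cfd has a large part in that sum, at 20.06 and 19.93 in WT against 19.02 and 18.71 in FLCNKO. The median log2 difference of the 11 adipocyte markers was -0.14, and the groups overlapped for 8 of them.

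Transcripts that mark macrophages and fibroblasts, which share the stroma with mast cells, had lower summed levels in both FLCNKO libraries. All 14 macrophage markers listed were measured, and their summed level, as log2, was 17.91 and 17.70 in WT and 17.08 and 16.85 in FLCNKO, a difference of -0.84. Of these, 2 fell with limma's test and are named after their values were seen, Itgam (-1.15 ± 0.12, SE; adjusted p = 0.0404) and C1qc (-1.01 ± 0.12, adjusted p = 0.0419), beside 0.614% of all genes. The groups did not overlap for 10 of the 14, with FLCNKO lower, beside 25.4% of all genes. They overlapped for Mertk, Fcgr1, Marco and Cx3cr1, named after their values were seen. The 13 fibroblast markers had summed levels of 20.39 and 20.25 against 19.34 and 19.27, a difference of -1.02. For each of the 13 the groups did not overlap, with FLCNKO lower, beside 25.4% of all genes. With limma's adjusted test 5 fell, beside 0.614% of all genes, namely the matrix genes Col1a1, Col1a2, Col5a1, Col6a1 and Fn1. Their log2 differences ran from -1.36 for Fn1 to -0.99 for Col6a1 (limma adjusted p = 0.0383 and 0.0419). Whether the proteases differed more or less than these markers was not tested.

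The 10 measured lymph node and lymphocyte markers had summed log2 levels of 13.97 and 12.34 in WT and 12.25 and 11.07 in FLCNKO, without overlap, although none of the 10 passed limma's adjusted test (3 lower and 0 higher at an unadjusted p under 0.05). The 15 skeletal muscle markers had summed log2 levels of 17.53 and 14.64 against 16.45 and 13.81, higher in replicate 1 of each group. Their median log2 values were 12.89 and 10.51 in WT against 12.21 and 5.42 in FLCNKO. Acta1 (13.32) and Myl1 (11.79) stayed high in FLCNKO replicate 2, so the sum understates how low most other muscle markers were there. FLCNKO replicate 2 was the lowest library for both lists, as it was for 5 of the 6 members, for 33 of the 61 other mast cell genes, and for 24.1% of all genes. The part of tissue make-up in the protease differences was not tested.

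Markers of other cells that can express the members were read as well. Of 7 basophil markers, Fcer1a, Gata2, Ms4a2 and Il3ra were measured, all of which mast cells also express, and the others were not analysed here. Kit is also made by melanocytes and by epithelial cells. Of 10 melanocyte markers 5 were measured, of which Kit is a member and Mitf is described above. The other 3, Dct, Mlana and Sox10, lay between 6.27 and 7.86 in the 4 libraries. Of 10 mammary and skin epithelial markers 6 were measured, with summed log2 levels of 10.71 and 11.45 against 9.62 and 9.85. Among these 1 of 6 fell, beside 0.614% of all genes. It was Trp63, a basal epithelial regulator (-2.52 ± 0.34, SE; limma adjusted p = 0.0478), the highest of the 6 in each library. Krt19 (-1.88) and Cdh1 (-0.86) were also lower without overlap. Krt10 was higher without overlap (0.79), and the groups overlapped for Krt8 (-0.01) and Krt18 (-0.46). These epithelial genes are named after their values were seen. The part of these cells in the level of Kit was not tested. Of 9 markers of innate lymphoid cells that also occur in fat 5 were measured, with summed levels of 13.21 and 13.26 against 12.86 and 13.17. Most of this sum was Rora (12.86 and 12.98 against 12.55 and 12.93), which overlapped. The 3 eosinophil markers measured of 8 had summed log2 levels of 10.36 and 9.68 against 8.85 and 8.23. Ear2, the highest of them in each library (-1.47), and Ccr3 (-1.62) were lower without overlap. Ear1 overlapped, with log2 values of 1.0 and 7.27 in WT against 4.42 and 6.13 in FLCNKO. Its log2 difference of 1.13 ± 2.28 (SE) is poorly resolved, as 1.0 is the lowest value of WT replicate 1. The 3 neutrophil markers had summed levels of 9.33 and 9.05 against 9.44 and 9.50, and each of the 3 overlapped.

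**Figure D4:**
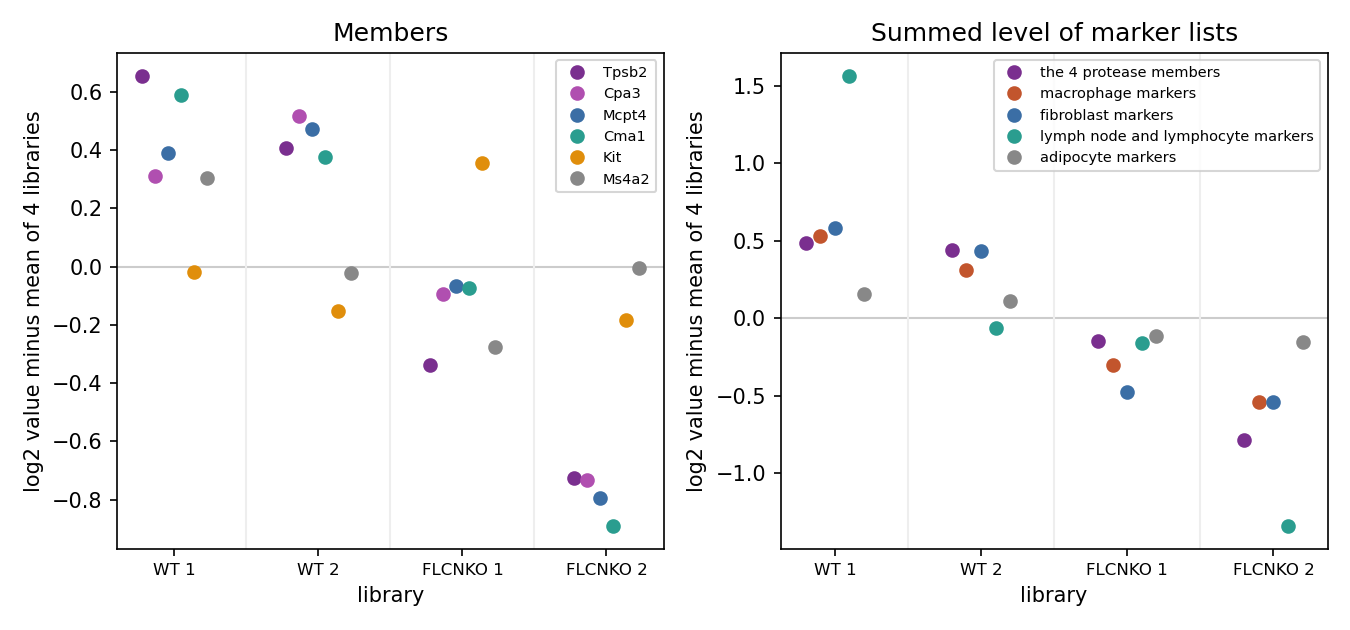
Log2 value minus the mean of the 4 libraries (vertical axis) in each library, for the 6 members (left) and for the summed level of marker lists (right). The proteases, macrophage and fibroblast markers are above 0 in both WT libraries and below 0 in both FLCNKO libraries, and Kit is highest in FLCNKO replicate 1.

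The genes whose pattern over the 4 libraries lay nearest to the mean pattern of the 6 members were Prss23, Cd68, Ces2g, Ednrb, Irak3, Kdelc2, C3ar1 and Tbxas1. Nearness was the Euclidean distance between values centred on each gene's mean, over 4 libraries and 6755 genes that varied at least as much as the flattest member, and ran from 0.0347 for Prss23 to 0.0531 for Tbxas1. Cd68, a macrophage lysosomal gene, had log2 values of 12.04 and 11.92 in WT against 11.58 and 11.06 in FLCNKO. C3ar1, the receptor for a complement fragment, had 11.36 and 11.25 against 10.85 and 10.45. The members themselves lay farther from their mean pattern, from 0.315 for Cpa3 to 0.811 for Kit, since proteases and receptors differed.

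Flcn itself, the target of the knockout, overlapped between the groups, at 12.36 and 12.21 (log2) in WT against 12.35 and 12.12 in FLCNKO. This does not check the labels, because the deleted part is not given and other cells of the tissue keep the gene. Sequencing depth is unknown, since the deposited values were brought to nearly the same distribution in every library, with medians of 10.76. Over all genes, the 2 WT libraries differed by a median of 0.147 (log2, absolute) and the 2 FLCNKO libraries by 0.247.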

How the data were processed

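RNA sequencing of inguinal white adipose tissue gave 4 libraries, grouped and numbered by their titles. The authors deposited 1 table per library with log2 expression values for 13677 Ensembl genes, made with STAR, limma and the build mm9 per the submitters' processing notes, which list no version or role. The sources used here give no depth, annotation, counting program or strand setting. An Ensembl identifier gave a symbol for 13592 genes. Testing used limma 3.58.1 (R 4.3.3; group as the only term, variances moderated with a trend, two-sided, Benjamini-Hochberg adjustment over all genes, threshold 0.05). A filter asking for 0 or more in 2 libraries removed 0 genes. The fit was tested on simulated data. The members and lists were chosen with earlier results of these data known. Named genes were the members, Flcn, up to 4 genes of each mast cell list with the smallest p, 8 genes nearest in pattern and the most abundant markers of other cells, of which a selection is printed. Promoter sequences and neighbours came from RefSeq (GRCm38.p6), transcripts from GENCODE M21, and Python 3.11.15 with matplotlib 3.10.9 drew the figures.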

Additional observations from a re-analysis of the deposited data

How the results depend on the processing

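With 2 libraries per group the calls rest on pooled variances, and low values such as those of Ms4a2 move in coarse steps. The settings varied were the filter, the scaling (quantile or median), the variance moderation, a replicate block and the set of libraries, each library being dropped in turn. After the data were seen, centring on the abundant genes (mean 12 or more) and on the 11 adipocyte markers was added. Of the 218 genes called in all and the 1 other mast cell gene, limma called 0 and 0 without the trend (2702 and 17 at an unadjusted p under 0.05). Robust estimation called 344 and 2, and centring on the adipocyte markers 365 in all. At an unadjusted p under 0.05, the 3061 genes in all became 1472 with that centring, 1395 without WT replicate 1 and 1807 without WT replicate 2. Leaving out 1 library gave 0 genes at the lowest and 0 at the highest, for all genes and for the mast cell list. With the replicate block 842 genes in all and 9 other mast cell genes were called, namely Alox5, Alox5ap, Cd63, Fyn, Inpp5d, Lmo4, Plcg2, Ptger3 and Syk. Replicate 1 minus replicate 2 correlated between the groups across 13677 genes (Pearson r of 0.363), but 2 pairs that share only a number do not show that samples are paired. The median log2 difference of the 6 members, -0.84, ran from -1.19 to -0.50 when 1 library was left out, that is without FLCNKO replicate 1 and without FLCNKO replicate 2. Protease differences lay between -1.37 and -0.50 over 9 alternatives and were below 0 in each. With 1 library dropped the sign could not change, because both FLCNKO libraries lay below both WT libraries for each protease. The scalings and centrings hardly moved the differences, so nothing is read from the shared sign. The block gives the same differences as the main model, because the design is balanced.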
